A study of Sus scrofa with 8 samples.

Results

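The genes examined here were 9 genes of fat storage and lipid uptake, PPARG, ADIPOQ, LEP, FABP3, FABP4, LPL, SCD, FASN and CD36, measured in pig lung. Every probe of the array that a symbol table or a RefSeq accession assigned to one of these genes was taken if its signal was well above background on at least 1 of 8 arrays. This gave 19 probes for 8 genes, of 34360 probes tested and 3829 genes with a symbol and a tested probe. FABP3 had no probe under a name used here and is absent from all results. SCD had 4 probes, CD36 had 5, ADIPOQ and FASN had 3 each, and PPARG, LEP, FABP4 and LPL had 1 each, with 13 of the 19 probes designed on a RefSeq transcript.

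The study used a migrant design with 2 breeds and 2 altitudes. TH were Tibetan pigs raised at 3500 m, and TL were Tibetan pigs moved from there to 40 m at 1 month of age. DL were Duroc pigs raised at 40 m, and DH were Duroc pigs moved from there to 3500 m at 1 month. All were females harvested at 6 months, with 2 pigs per group and lung RNA of a single pig on each 1-color array. Within a breed, the moved group differs from the native one by the transfer as well as by the altitude, and these cannot be told apart. Each altitude and each breed holds 1 native and 1 moved group. The methods name a farm in Yunnan for TH and another in Guangdong for DL, and none for the moved pigs. An altitude effect therefore cannot be told apart from other differences between the sites. The precision of every value is limited by having only 2 arrays in a group.

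Fat cells store triglyceride and release hormones, and the set covers the main steps of that life. PPARG is the nuclear receptor that drives fat cell differentiation and lipid storage, and ADIPOQ (adiponectin) and LEP (leptin) are hormones secreted by adipocytes. LPL hydrolyses triglyceride at the capillary wall, CD36 carries long-chain fatty acids across the membrane, and FABP4 binds them in the cytosol. FASN synthesizes saturated fatty acids, and SCD introduces a double bond into them. In lung the same genes also serve other cells: type II cells make fatty acids for surfactant lipid, and alveolar macrophages express PPARG, CD36 and FABP4.

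One slide carried the TH and DL arrays, the native groups, and the other slide those of TL and DH, the moved groups. A breed by altitude interaction therefore cannot be told apart from a difference between slides or from the transfer. The breed and altitude effects are each balanced over the slides and over native and moved groups. TH against DL and TL against DH are the comparisons within a slide, and in each of these both breed and altitude differ. The number of probes above background was 31634 and 31704 on the TL arrays and 26455 to 29292 on the others. Median raw spot signal was 324 and 333.5 on the TL arrays and 207.5 to 230 elsewhere, so both TL arrays stood apart. The surfactant genes SFTPA1, SFTPB, SFTPC and SFTPD, which type II cells of lung express, were above background on every array.

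Of the 19 probes, 8 passed the threshold for breed (adjusted p below 0.0001 in limma, with Benjamini-Hochberg adjustment over all 34360 probes), 6 of them higher and 2 lower in Tibetan pigs. Over all tested probes 27.5% passed, 12.8% higher and 14.7% lower. For altitude 11 of the 19 passed, 8 higher and 3 lower at high altitude, against 26.4% of all tested probes (14.1% higher and 12.3% lower). For the interaction, TH minus TL less DH minus DL, 8 of the 19 passed, 3 with a positive and 5 with a negative coefficient, against 28.5% of all tested probes (15% positive and 13.6% negative). The median coefficient of the 19 probes was 0.11 for breed, 0.30 for altitude and -0.02 for the interaction on the log2 scale, and over all tested probes it was -0.07, 0.01 and 0.21. Probes of a gene are not independent, and the 11 probes with an altitude effect belonged to 4 genes, ADIPOQ, SCD, FASN and CD36. Omitting 1 array at a time lowered each of these counts, and it also lowered the number of all tested probes that passed for each term.

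**Figure D1:**
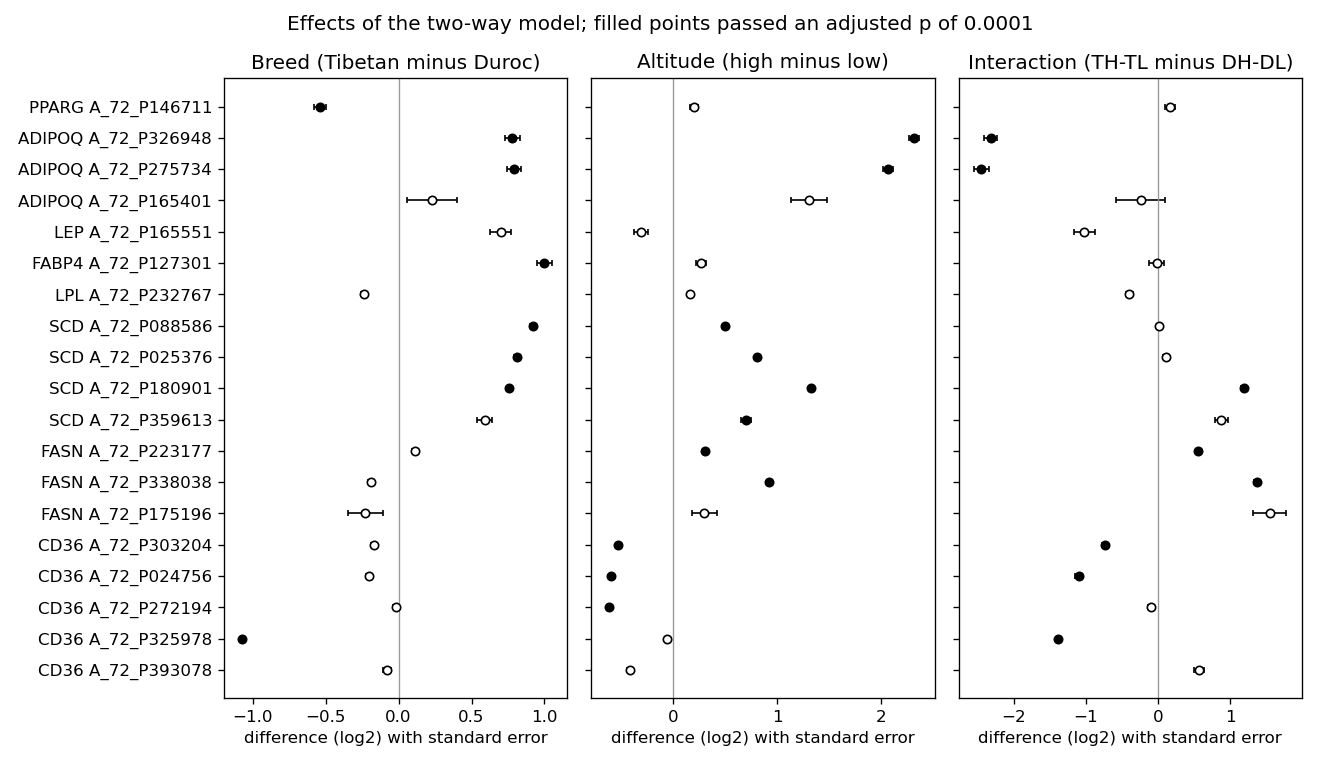
Coefficients of the two-way model on the log2 scale (x axes, 1 panel each for breed, altitude and interaction) for the 19 probes (rows), with bars for the standard error and filled points for an adjusted p below 0.0001. The brighter ADIPOQ probes have the largest altitude coefficients (2.07 and 2.32) and the most negative interactions (-2.45 and -2.32), and all 4 SCD probes lie to the right of zero for breed and altitude.

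PPARG was lower in Tibetan than in Duroc lung. Log2 expression was 12.65 and 12.61 in TH, 13.05 and 13.12 in DH, 12.37 and 12.33 in TL, and 12.91 and 13.02 in DL. Every Tibetan array lay below every Duroc array, and the 2 Duroc groups were the closest pair. The breed coefficient was -0.54 ± 0.04 (SE), a 1.45-fold lower level in Tibetan pigs, with an adjusted p of 9.87e-05 just inside the threshold. The coefficient was 0.20 ± 0.04 for altitude (adjusted p = 0.00479) and 0.16 ± 0.07 for the interaction (adjusted p = 0.0977), neither of which passed. In bulk lung, fewer cells of a type and less RNA per cell cannot be told apart, here and in all that follows.

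ADIPOQ had the widest range of the 8 genes. At its brightest probe, A_72_P326948, expression was 8.99 and 9.01 in TH, 9.40 and 9.36 in DH, 7.84 and 7.83 in TL, and 5.80 and 5.99 in DL. DH was highest and DL lowest, and no 2 groups overlapped. High altitude was higher in both breeds, by 1.17 ± 0.07 in Tibetan pigs (2.24-fold, adjusted p = 3.86e-05) and by 3.48 ± 0.07 in Duroc pigs (11.2-fold, adjusted p = 1.40e-05). The altitude coefficient was 2.32 ± 0.05 (adjusted p = 3.68e-06) and remained past the threshold whichever array was omitted. The breed coefficient was 0.78 ± 0.05 (adjusted p = 6.32e-05), and it averages over opposite orders: TL was above DL by 1.94 ± 0.07, while TH minus DH was -0.38 ± 0.07 (adjusted p = 0.00559, not past the threshold). The interaction was -2.32 ± 0.09 (adjusted p = 1.55e-05). With scaling to the 75th percentile of each array the Tibetan altitude difference was 0.85 and missed the threshold (adjusted p = 0.000141). Only 1 of the 2 DL arrays was well above background at this probe, so the fold against DL rests on a weak signal.

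The other ADIPOQ probes also had their lowest measured mean in DL. A_72_P275734 read 8.02 and 8.18 in TH, 8.54 and 8.53 in DH, and 7.24 and 7.28 in TL, and was not well above background on either DL array, where the measured mean was 5.24. Taking the lowest signal above background for DL, ADIPOQ at this probe was at least 7.18-fold higher in DH than in DL, at least 5.32-fold higher in TH and at least 2.97-fold higher in TL. These bounds were not tested. The fitted differences, with DL as measured, had adjusted p values of 1.47e-05, 9.72e-06 and 6.26e-06 in limma. With DL at the lowest signal above background the interaction of the probe was -2.00, against -2.45 as fitted, and the altitude coefficient 1.84, against 2.07. The dimmest probe, A_72_P165401, read 6.15 and 6.31 in TH, 6.17 and 6.07 in DH, and 5.02 and 5.06 in TL. In DL it read 5.05 and 4.32 and again was not well above background. The arrays of TL and DL thus overlapped at this probe (TL minus DL 0.36, adjusted p = 0.231 in limma), and DL could not be placed below TL. None of the terms of A_72_P165401 passed, and with DL at the lowest signal above background its interaction took the opposite sign (0.76 against -0.24 as fitted). TH was at least 1.46-fold and DH at least 1.35-fold above DL at this probe (adjusted p = 0.00335 and 0.00474 in limma for the fitted differences, not for these bounds).

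**Figure D2:**
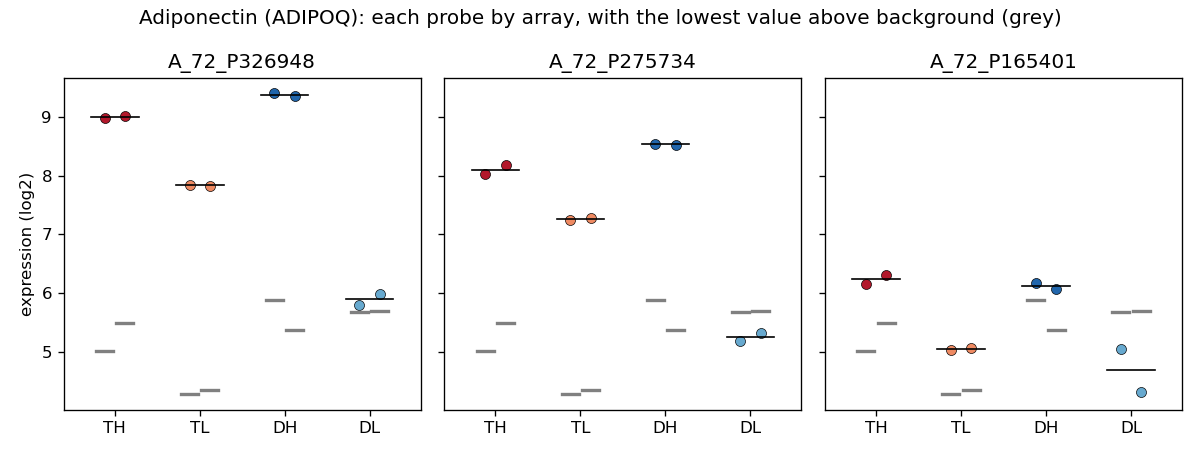
Log2 expression (y axis) of the 3 ADIPOQ probes (panels) in the 4 groups (x axis), with 1 point per array, black lines at group means, and grey lines at the lowest value well above background on each array. The mean of DL lies lowest in all 3 panels, but its arrays overlap those of TL at A_72_P165401. TH and DH lie above TL in each panel.

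Of 8 adipocyte markers 5 had a tested probe (CIDEC, LIPE, PLIN1, CFD and RETN), and their summed linear level (in units of 1000) was 20.0 to 21.2 in TH, 39.5 to 41.1 in DH, 16.7 to 17.3 in TL and 32.4 to 33.4 in DL. CIDEC, a fat droplet protein, gave most of the sum, 63.5 to 65.8% of it on the TH arrays and 79.6 to 83.8% on the rest. Without it the other 4 markers summed to 7.25 to 7.31 in TH, 6.68 to 6.96 in DH, 2.71 to 2.84 in TL and 6.61 to 6.64 in DL. Of the 7 probes of these markers, 4 passed for altitude, against 26.4% of all tested probes. Of these 3 were higher at high altitude like ADIPOQ (the dimmer CIDEC probe, LIPE and PLIN1) and 1 was lower (RETN). The 7 had a median altitude coefficient of 0.64. For breed 5 of the 7 passed, 1 higher and 4 lower in Tibetan pigs, against 27.5% of all tested probes. For the interaction 3 passed, against 28.5%, all positive where that of ADIPOQ was negative. The brightest CIDEC probe, the one in the sum, passed neither for altitude (0.13, adjusted p = 0.0302 in limma) nor for the interaction (-0.44, adjusted p = 0.00387). PLIN1, the coat protein of fat droplets in adipocytes, had a mean of 5.84 in TH and 7.15 in DH and was not well above background in TL or DL. This places DH at least 2.75-fold above DL and TH at least 2.89-fold above TL. The fitted differences, not these bounds, had adjusted p values in limma of 0.000183 (DH minus DL, not past the threshold) and 3.65e-05 (TH minus TL). DH was highest for PLIN1 as for ADIPOQ. PLIN1 was picked out after its values were seen. The part of fat tissue in the lung samples was not tested.

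LEP, the other adipokine, was highest in TL. Its log2 expression was 8.59 and 8.52 in TH, 8.23 and 8.50 in DH, 9.37 and 9.39 in TL, and 8.11 and 8.23 in DL. TL stood above all other arrays, and DH and DL touched at 8.23. TL exceeded DL by 1.21 ± 0.10 (2.31-fold, adjusted p = 0.00017), and TH minus TL was -0.82 ± 0.10 (adjusted p = 0.000817). None of the 3 terms of LEP passed the threshold of 0.0001; the breed coefficient was 0.70 ± 0.07 (adjusted p = 0.000469) and the interaction -1.02 ± 0.14 (adjusted p = 0.00158). With the 75th percentile TL minus DL passed (1.59, adjusted p = 6.14e-05). ADIPOQ and LEP, both hormones of adipocytes, therefore differed in group order, with DH and TL at their respective tops.

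Among the uptake genes, FABP4 was higher in Tibetan lung. Its values were 12.93 and 13.06 in TH, 12.06 and 11.96 in DH, 12.69 and 12.79 in TL, and 11.69 and 11.78 in DL. The 4 groups did not overlap, and all Tibetan arrays lay above all Duroc arrays. The breed coefficient was 1.00 ± 0.05 (1.99-fold, adjusted p = 3.34e-05). The altitude coefficient was 0.27 ± 0.05 (adjusted p = 0.00525), and the altitude differences of the breeds, 0.26 in Tibetan and 0.28 in Duroc pigs, left an interaction of -0.02 ± 0.10 (adjusted p = 0.85). FABP4 and PPARG thus had breed coefficients of opposite sign.

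LPL varied little between the groups. Its values were 9.23 and 9.21 in TH, 9.65 and 9.66 in DH, 9.25 and 9.27 in TL, and 9.33 and 9.26 in DL. DH stood above the other groups, whose arrays all lay between 9.21 and 9.33. No term passed, although the breed coefficient of -0.24 ± 0.02 had an adjusted p of 0.000391 and the interaction of -0.40 ± 0.05 one of 0.000731. DH exceeded DL by 0.36 ± 0.03 (1.28-fold, adjusted p = 0.000502). With the 75th percentile the interaction was -0.75 and passed (adjusted p = 8.45e-05), and the breed coefficient was -0.06 (adjusted p = 0.0718).

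CD36 was lowest in TH, at the brightest probe and at 3 others. At the brightest probe, A_72_P303204, expression was 13.82 and 13.80 in TH, 14.34 and 14.38 in DH, 14.70 and 14.73 in TL, and 14.51 and 14.52 in DL. The altitude coefficient was -0.53 ± 0.02 (1.44-fold lower at high altitude, adjusted p = 1.37e-05) and the interaction -0.74 ± 0.04 (adjusted p = 3.91e-05). In Tibetan pigs CD36 fell by 0.90 ± 0.03 from TL to TH (adjusted p = 4.66e-06), and between DL and DH the difference was -0.16 ± 0.03 (adjusted p = 0.00567). With the 75th percentile neither term passed at this probe, at -0.16 for altitude (adjusted p = 0.00109) and -0.14 for the interaction (adjusted p = 0.0243), while the breed coefficient passed (-0.53, adjusted p = 1.11e-05). A_72_P024756 had the same order of groups, with 12.80 and 12.75 in TH, 13.51 and 13.54 in DH, 13.93 and 13.92 in TL, and 13.55 and 13.60 in DL, and passed for altitude (-0.60 ± 0.02, adjusted p = 1.52e-05) and for the interaction (-1.10 ± 0.05, adjusted p = 1.75e-05). Both of these too missed the threshold with the 75th percentile (-0.30, adjusted p = 0.000123, and -0.56, adjusted p = 0.000153).

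The remaining CD36 probes did not show the same pattern. A_72_P272194, with 11.17 and 11.14 in TH, 11.24 and 11.22 in DH, 11.82 and 11.84 in TL, and 11.80 and 11.79 in DL, was lower at high altitude in both breeds, with an altitude coefficient of -0.62 ± 0.02 that passed and an interaction of -0.10 ± 0.04 that did not. A_72_P325978 read 10.39 on both TH arrays, 11.14 and 11.15 in TL, 12.16 on both DH arrays, and 11.51 and 11.54 in DL. There the 2 breeds moved in opposite directions with altitude, by -0.75 ± 0.02 in Tibetan and 0.64 ± 0.02 in Duroc pigs (interaction -1.39 ± 0.03, adjusted p = 2.91e-06), and the breed coefficient was -1.07 ± 0.02 (adjusted p = 1.88e-06). A_72_P393078 passed for no term and was lowest in DH. TH was lowest at 4 of the 5 probes; TL was highest at 3, but not with scaling to the 75th percentile, which placed TL below DL at these 3 probes. Over the 5 probes the interaction ranged from -1.39 to 0.57. The transcripts that each probe reads were not resolved here, and A_72_P024756, A_72_P272194 and A_72_P325978 were not designed on a RefSeq transcript.

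SCD was highest in TH and lowest in DL at all 4 probes. At the brightest, A_72_P088586, expression was 15.63 and 15.65 in TH, 14.72 and 14.71 in DH, 15.13 and 15.14 in TL, and 14.21 and 14.23 in DL. The 4 groups did not overlap, although TL fell below DH (TL minus DH of -0.34 in place of 0.42) when the signals were scaled to the 75th percentile of each array. The breed coefficient was 0.92 ± 0.02 (1.89-fold, adjusted p = 2.41e-06), the altitude coefficient 0.50 ± 0.02 (1.41-fold, adjusted p = 1.02e-05), and the interaction 0.01 ± 0.03 (adjusted p = 0.845). A_72_P025376 had 13.41 and 13.43 in TH, 12.57 and 12.54 in DH, 12.54 and 12.57 in TL, and 11.81 and 11.78 in DL, and both its breed and its altitude coefficient were 0.81 ± 0.02. TL and DH had the same range at this probe.

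With the deposited values an interaction passed at 1 SCD probe, which was among the dimmer ones. With the 75th percentile the interactions of the 4 probes, from the brightest to the dimmest, were 0.65, 0.53, 0.88 and 0.47 in place of 0.01, 0.11, 1.19 and 0.88, so that the contrast between bright and dim probes depends on the scaling. A_72_P180901 read 11.06 and 11.05 in TH, 9.72 and 9.70 in DH, 9.14 and 9.14 in TL, and a mean of 8.97 in DL (SD 0.03). High altitude was higher by 1.92 ± 0.03 in Tibetan pigs (3.78-fold) and by 0.73 ± 0.03 in Duroc pigs (1.66-fold), with an interaction of 1.19 ± 0.04 (adjusted p = 7.38e-06). A_72_P359613 read 8.74 and 8.92 in TH against 7.51 to 7.80 elsewhere, and only its altitude coefficient passed (0.70 ± 0.05, adjusted p = 8.96e-05). TH against DL, which share a slide, differed by 1.28 to 2.08 at the 4 probes (2.43-fold to 4.23-fold), and all 4 passed.

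FASN was highest in TH and lowest in TL at all 3 probes. The brightest, A_72_P223177, read 17.54 and 17.55 in TH, 17.18 and 17.13 in DH, 16.96 and 16.95 in TL, and 17.13 and 17.12 in DL. Its altitude coefficient was 0.31 ± 0.02 (adjusted p = 6.25e-05) and its interaction 0.56 ± 0.04 (adjusted p = 8.56e-05), and with the 75th percentile these were 0.73 and 0.96. A_72_P338038 read 13.62 and 13.63 in TH, 13.11 and 13.15 in DH, 11.99 and 12.05 in TL, and 12.91 and 12.88 in DL. High altitude was higher by 1.60 ± 0.03 in Tibetan pigs (3.04-fold, adjusted p = 1.34e-06), and the difference between DH and DL was 0.24 ± 0.03 (adjusted p = 0.00197), with an interaction of 1.37 ± 0.04 (adjusted p = 7.94e-06). A_72_P175196 was dim, with 7.44 and 7.31 in TH, 6.87 and 6.78 in DH, 6.27 and 6.33 in TL, and 7.06 and 7.54 in DL, and none of its terms passed. With the deposited values no FASN probe passed for breed, whereas 3 of the 4 SCD probes did. With the 75th percentile all 4 SCD probes passed for breed, higher in Tibetan pigs, and so did FASN A_72_P338038, lower in Tibetan pigs (-0.34, adjusted p = 4.81e-05 in limma).

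**Figure D3:**
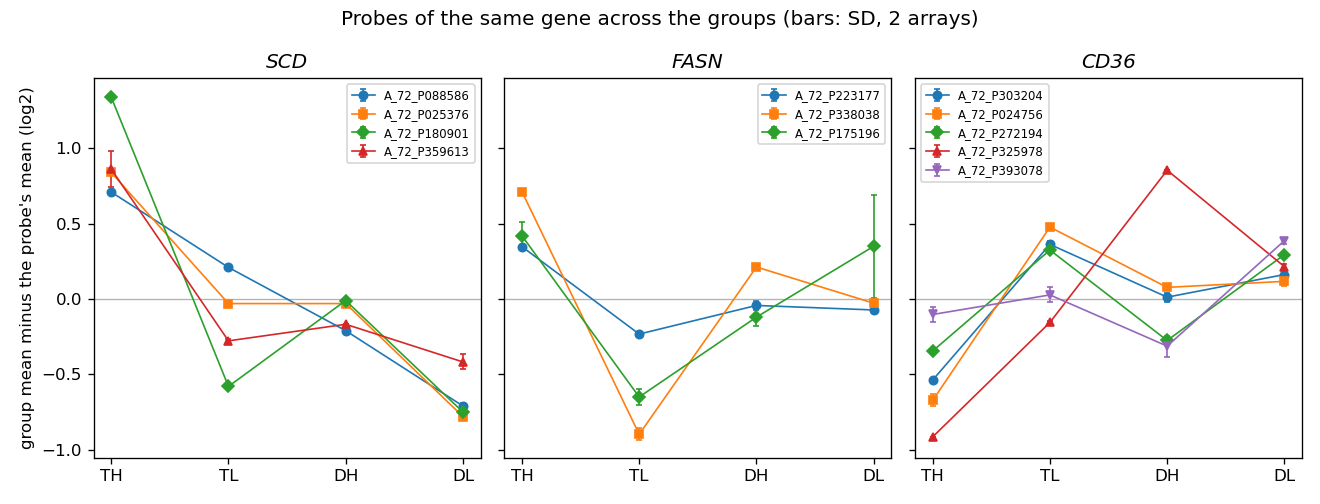
Group mean less the mean of the probe over the 4 groups (y axis, log2) for each probe (colors and markers) of SCD, FASN and CD36 (panels), with the SD over 2 arrays as bars and lines joining the groups (x axis) of a probe. SCD peaks in TH and is lowest in DL at all 4 probes, FASN peaks in TH and is lowest in TL at all 3, and the 5 CD36 probes cross.

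**Figure D4:**
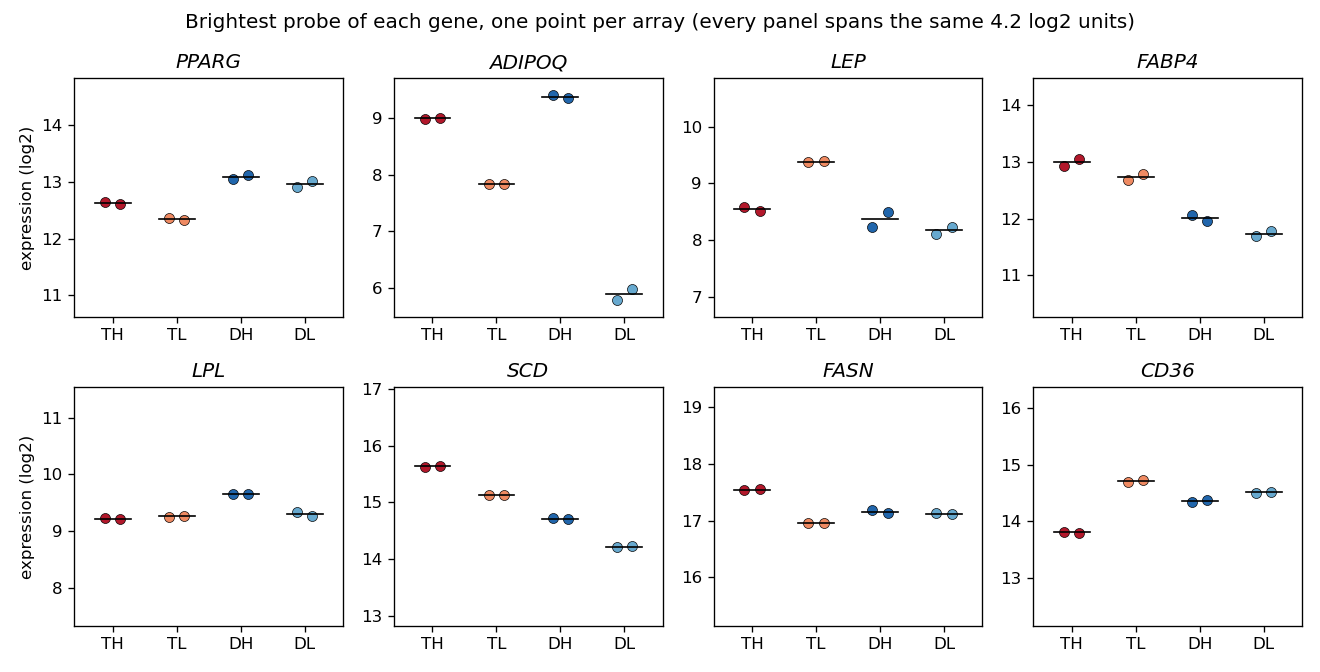
Log2 expression (y axis) of the brightest probe of each of the 8 genes (panels) in the 4 groups (x axis), with 1 point per array and lines at group means; every panel spans the same log2 range. The arrays of a group lie farthest apart for LEP in DH (8.23 and 8.50) and next for ADIPOQ in DL (5.80 and 5.99), and the group that is highest differs from gene to gene.

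Between single groups, TH differed from TL at 11 of the 19 probes, 7 higher and 4 lower in TH, against 37.3% of all tested probes (20.6% higher and 16.7% lower). The 11 were 1 ADIPOQ, 4 SCD and 2 FASN probes, higher in TH, and 4 CD36 probes, lower in TH. Synthesis genes and the fatty acid carrier CD36 thus had opposite signs in Tibetan pigs, and their directions held with every scaling tried. DH differed from DL at 7 probes, 6 higher and 1 lower in DH, against 10% of all tested probes (5.88% higher and 4.15% lower). These were 2 ADIPOQ and 3 SCD probes, all higher in DH, and 2 CD36 probes of opposite sign. The median difference of the 19 probes was 0.50 for TH minus TL and 0.26 for DH minus DL, and over all tested probes it was 0.11 and -0.01. Both comparisons lie between slides.

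Comparing breeds at the same altitude, TH differed from DH at 6 probes, against 9.36% of all tested probes (4.18% higher and 5.18% lower). Higher in TH were 3 SCD probes, by 0.87 to 1.35, and lower in TH were 3 CD36 probes, by -1.77 to -0.54. At low altitude, TL differed from DL at 7 probes, 5 higher and 2 lower in TL, against 37.6% of all tested probes (16% higher and 21.6% lower). The higher ones were 2 ADIPOQ probes, the FABP4 probe and 2 SCD probes, and the lower ones were FASN A_72_P338038 and CD36 A_72_P325978. The breed difference of SCD at its brightest probe was 0.93 ± 0.02 at high and 0.92 ± 0.02 at low altitude, but with the 75th percentile it was 0.91 and 0.25, and the latter missed the threshold (adjusted p = 0.000242). The TL minus DL differences of SCD A_72_P025376 and FABP4 missed it likewise (0.38, adjusted p = 0.000124, and 0.61, adjusted p = 0.000687).

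Within a slide, TH differed from DL, the native groups, at 12 of the 19 probes, 8 higher and 4 lower in TH, against 14.2% of all tested probes (6.92% higher and 7.3% lower). The 12 comprised 2 ADIPOQ, 1 FABP4, 4 SCD and 1 FASN probes that were higher in TH, and 4 CD36 probes that were lower. FABP4 was 2.40-fold higher in TH than in DL (1.27 ± 0.07, adjusted p = 8.27e-05). TL differed from DH, the moved groups, at 8 probes, 2 higher and 6 lower in TL, against 34% of all tested probes (15.2% higher and 18.8% lower). PPARG was among the lower ones, by -0.74 ± 0.05 (1.67-fold, adjusted p = 9.31e-05). The comparisons named in the last paragraphs share arrays and are not independent of each other. The omission of any array lowered these counts, in TH against TL and TL against DL mostly that of an array of the groups compared. With 1 array omitted, fewer of all tested probes passed too, in each of these comparisons.

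By group, TH was the highest at 9 of the 19 probes and the lowest at 5, and DL was the highest at 1 and the lowest at 9. Over all tested probes TH was highest at 24.7% and lowest at 20.5%, and DL was highest at 27.3% and lowest at 20.7%. TL, which was lowest at 42.9% of all tested probes, was lowest at 4 of the 19, namely the PPARG probe and the 3 FASN probes. It was highest at 4 others, against 30.6% of all tested probes. DH was highest at 5, against 17.3% of all tested probes. The 5 were PPARG, LPL, both brighter ADIPOQ probes and CD36 A_72_P325978. These orders count probes and not genes, so that SCD alone gives 4 of the 9 probes at which TH was highest.

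The scaling of the TL arrays bore on some of these values. The deposited values give every array the same distribution. When processed signals were instead scaled to the 75th percentile of each array, the median of TL minus DL moved from -0.10 to -0.68 over the 5222 tested probes with a mean log2 of at least 13, and from -0.24 to 0.09 over the 21386 probes below 10. The median interaction over all tested probes moved from 0.21 to 0.33, a shift of 0.12, and that of TH minus TL from 0.11 to 0.23. The altitude effect passed for 4845 probes higher and 4220 lower at high altitude with the deposited values, and for 6697 and 3758 with the 75th percentile. The bright CD36 probes followed: TL minus DL of A_72_P303204 was 0.20 with the deposited values and -0.46 with the 75th percentile, and its TH minus TL was -0.90 and -0.22. The interaction of SCD A_72_P088586 was 0.01 with the deposited values and 0.65 with the 75th percentile (adjusted p = 3.22e-05). ADIPOQ kept its directions, with an interaction at A_72_P326948 of -2.32 and -2.76. DH minus DL, in which TL takes no part, had the same direction at all 19 probes with the deposited values and with the 75th percentile.

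**Figure D5:**
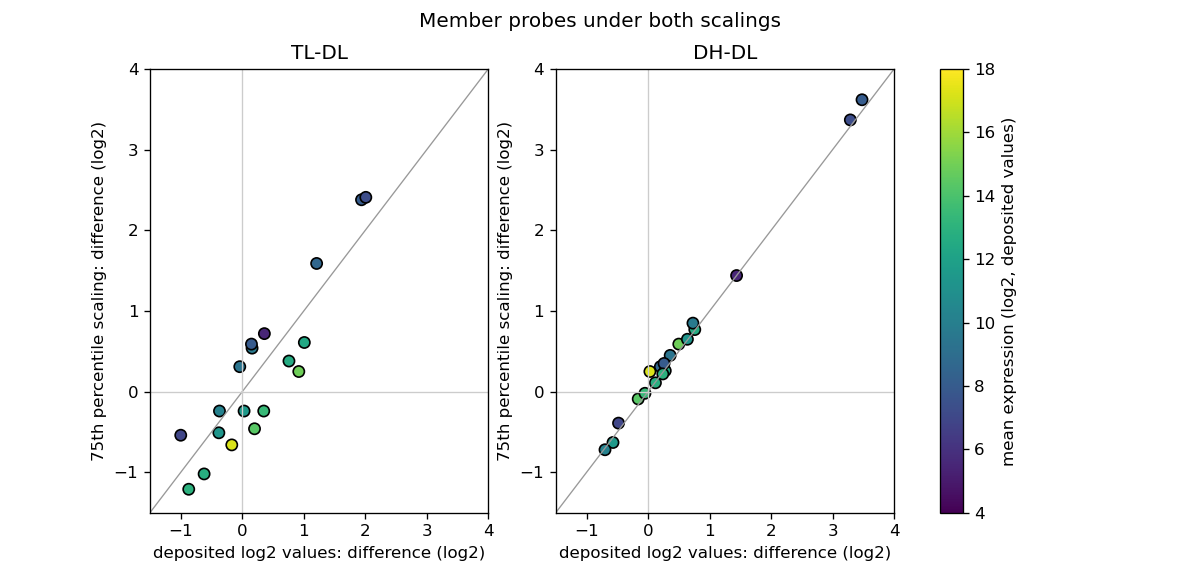
Difference in log2 expression for each of the 19 probes with the deposited values (x axis) against that with scaling to the 75th percentile (y axis), for TL minus DL and DH minus DL (panels), colored by mean expression; the grey diagonal marks equal values. For DH minus DL the points lie near the diagonal, and for TL minus DL the bright probes lie below it and the dim ones above it.

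Other lipid genes were counted from a list of 72, of which 39 had a tested probe (72 probes). CIDEC, LIPE, PLIN1, CFD and RETN, counted above as adipocyte markers, are among them, so these counts overlap. At least 1 term passed for 42 of these probes, against 46.1% of all tested probes. For breed 27 passed (37.5%, against 27.5% of all tested probes), 3 higher and 24 lower in Tibetan pigs (against 12.8% and 14.7%). For altitude 31 passed (43.1%, against 26.4%), 24 higher and 7 lower at high altitude (against 14.1% and 12.3%). For the interaction 24 passed (33.3%, near the 28.5% of all tested probes), 17 positive and 7 negative (against 15% and 13.6%). Their median coefficients were -0.33, 0.15 and 0.43. The breed direction of the list was thus mostly the reverse of that of FABP4, SCD and ADIPOQ, whose passing probes were all higher in Tibetan pigs. It was that of PPARG (-0.54) and CD36 A_72_P325978 (-1.07), which passed lower in Tibetan pigs. The number of passing probes dropped with 1 array omitted, as did the number of all tested probes that passed for each term.

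Among fat droplet and lipolysis genes, 7 of 12 probes passed for breed (against 27.5% of all tested probes), all lower in Tibetan pigs. For altitude 7 passed (against 26.4%), all higher at high altitude. The largest interactions were those of the lipases PNPLA2 (1.96 ± 0.08, adjusted p = 1.55e-05) and LIPE (1.33 ± 0.05, adjusted p = 1.03e-05) and of DGAT1 (0.86 ± 0.04, adjusted p = 2.87e-05), which makes triglyceride. PNPLA2 had a mean of 9.49 in TH, 8.94 in DH, 7.64 in TL and 9.04 in DL, so that TL was lowest as it was for FASN. SREBF1, a transcription factor that activates lipid synthesis genes, FASN and SCD among them, was 13.25 in TH, 12.14 in DL and 10.77 in TL, with DH just below DL and an interaction of 2.61 ± 0.14 (adjusted p = 4.42e-05). TH was highest and TL lowest for SREBF1, the same extremes as at the 3 FASN probes. CIDEA and LPIN1 of the droplet list and THRSP of the synthesis list passed for no term. ACLY passed for none at its brightest probe, but for altitude at another, A_72_P188751 (0.75 ± 0.05, adjusted p = 7.34e-05).

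In the uptake list, the fatty acid transporter SLC27A1 had an interaction of 1.08 ± 0.05 (adjusted p = 2.08e-05), opposite in sign to that of CD36 at its brightest probe, while FABP5, a relative of FABP4, passed for no term. ACSL4 passed for none at its brightest probe, but at A_72_P180776 for altitude (-0.46 ± 0.02, adjusted p = 4.57e-05) and the interaction (-1.19 ± 0.05, adjusted p = 1.79e-05). Of the adipocyte regulators and adipokine partners, 7 of 17 probes passed for the interaction, all positive, against 28.5% of all tested probes. The largest were RETN (resistin, 2.65 ± 0.03, adjusted p = 9.32e-07), RBP4 (1.71 ± 0.08, adjusted p = 2.15e-05) and PPARD (1.51 ± 0.08, adjusted p = 3.72e-05). These and the other list genes are given at their brightest probe. The interaction of ADIPOQ had the opposite sign to all 7. RETN was lower in DH than in DL, by -1.90 ± 0.02 (adjusted p = 1.10e-05), where ADIPOQ was higher. PPARD, the other PPAR of the list with a result, was lower in Tibetan pigs like PPARG (-1.95 ± 0.04, adjusted p = 2.84e-06).

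Of the oxidation genes, 9 of 19 probes passed for altitude, 4 higher and 5 lower, against 26.4% of all tested probes. PDK4, a kinase that spares glucose in favor of fat as fuel, was 12.23 in TH, 14.55 in DH, 13.99 in TL and 14.28 in DL, and its interaction was -2.03 ± 0.03 (adjusted p = 1.47e-06). CPT1B, which takes fatty acids into mitochondria, had an interaction of -1.24 ± 0.03 (adjusted p = 4.79e-06). TH was lowest for PDK4 as it was for CD36, and both had a negative interaction. ACADM passed for no term.

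Markers of other cell types, among them macrophages and vessel walls, which also express several of the 8 genes, differed between the groups. The summed linear level of 6 alveolar macrophage markers (in units of 1000) was 236 to 237 in TH, 344 to 348 in DH, 253 to 259 in TL and 426 in DL. Of their 9 probes 7 passed for breed, all lower in Tibetan pigs, against 27.5% of all tested probes. PPARG had the same breed direction, and FABP4 the opposite one. LYZ varied most of the 6 macrophage markers, with means of 13.48 in TH, 15.92 in DH, 15.56 in TL and 17.44 in DL. The sum had the group order of LYZ and MRC1, and CD163, CD14, CTSD and SIGLEC1 had other orders at their brightest probes. The sum of 8 endothelial markers was 299.6 to 303 in TH, 396 to 398 in DH, 325 to 327 in TL and 404 to 409 in DL, lowest in TH as CD36 was. By gene, 4 of the 8 were lowest in TL at their brightest probe. Type II cell markers, at 5 genes, summed to 841 to 851 in TH, 1064 to 1121 in DH, 1041 to 1092 in TL and 989 to 998 in DL, lowest in TH where SCD and FASN were highest. At their brightest probes SFTPA1 and SFTPC were lowest in TH, SFTPB and SLC34A2 in DL, and SFTPD in TL. Markers of skeletal and heart muscle, at 8 genes, summed to 7.98 to 8.04 in TH, 9.03 to 9.55 in DH, 5.45 to 5.53 in TL and 5.84 to 5.91 in DL. These sums were higher at high altitude in both breeds, as ADIPOQ and SCD were. Of the 11 muscle probes 7 passed for altitude, 6 higher and 1 lower, against 26.4% of all tested probes. ACTA1 and MYH7 were highest in TL at their brightest probes. HBB, the only erythroid marker with a tested probe, was higher in Tibetan pigs like FABP4 and SCD, by 1.04 ± 0.02 (adjusted p = 2.49e-06). All sums are of the deposited values. With the 75th percentile the median of TH minus TL moved from 0.06 to 0.69 over the tested probes with a mean log2 of at least 13. The group order of the sums under that scaling was not tested. The part of such differences in cell makeup in the values of the 8 genes was not tested.

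For each gene the named probes most like its brightest probe over the 8 arrays were sought among 5453. ADIPOQ was followed most closely by SCARB1 (Pearson r = 0.997) and SFRP1 (r = 0.996), with 34 probes above an r of 0.95. CD36 was closest to KLF6 (r = 0.997) and CAV1 (r = 0.994), SCD to ALB (r = 0.997) and PGK1 (r = 0.996), and FASN to B4GALT3 and PHGDH (r = 0.998 for both). PPARG was closest to HPS5 (r = 0.997) and LEP to EXOSC1 (r = 0.990), with 240 and 254 probes above an r of 0.95. FABP4 was closest to PPP1R13L (r = 0.984) and LPL to NFKBIA (r = 0.991). These 8 arrays form 4 groups of near-identical pairs on 2 slides, so that such an r describes the order of 4 group means.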

How the data were processed

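The authors extracted spot intensity from each 1-color array with Agilent Feature Extraction 10.7.3.1 (per the file headers; the submitters' processing notes name 9.1) and deposited a table of log2 values that the methods describe as RMA normalized. Its columns share 1 distribution and rank probes as the processed signals do (Spearman's rho of at least 0.999996), but the exact steps are not given in the sources used here. These deposited log2 values were the main values; the scanner intensity gave the background flags and the alternative scalings.

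Tests covered 34360 of 43603 non-control probes, those that exceeded background clearly on 1 array or more (24722 were so on all 8, as were 16 of the 19 probes of the set). Breed, altitude and interaction were fitted as a two-way model with limma 3.58.1 (lmFit and eBayes) in R 4.3.3, with Benjamini-Hochberg adjustment and a threshold of 0.0001 after the methods; group contrasts came from the same fit. Fold changes are 2 to the power of the log2 difference. Summaries and figures used Python 3.11.15, numpy 2.4.6, pandas 2.3.3 and matplotlib 3.10.9, and the fit was tested on simulated data.

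Symbols came from the study's tables (3655 probes of shortened tables) and RefSeq accessions (2683 of 3250 matched); both sources named 660 probes, 98.0% of them alike, and 5678 probes had a symbol in all. A gene with several probes was led by its brightest. From each list of other lipid genes, up to 3 genes with the largest interaction that passed and up to 2 that passed for no term were named, and for each gene of the set up to 2 probes most like it. Members and lists were chosen with earlier results of these data known. The array design's genome build is not given in the sources used here, so no coordinates are printed. Alternatives were other background corrections and scalings, filters on dim probes, an ANOVA without moderation, an intensity trend, thresholds of 0.05 and 0.01, a block for the replicate number, and omission of single arrays.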

Additional observations from a re-analysis of the deposited data

Results flagged for a closer look

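At 8 probes the altitude difference of Tibetan pigs differed from that of Duroc pigs by the test of the interaction in limma. The altitude difference in Tibetan less that in Duroc pigs was -2.32 at ADIPOQ A_72_P326948, -2.45 at ADIPOQ A_72_P275734, -0.74 at CD36 A_72_P303204, -1.10 at CD36 A_72_P024756 and -1.39 at CD36 A_72_P325978. It was 1.19 at SCD A_72_P180901, 0.56 at FASN A_72_P223177 and 1.37 at FASN A_72_P338038. The slides hold TH with DL and DH with TL, the native and the moved groups. Each of these values therefore cannot be told apart from a difference between slides or from the transfer. With scaling to the 75th percentile of each array, 2 of the 8 missed the threshold, CD36 A_72_P303204 (-0.14, adjusted p = 0.0243 in limma) and CD36 A_72_P024756 (-0.56, adjusted p = 0.000153). CD36 A_72_P325978 was the only one of the 8 that remained past the threshold whichever array was omitted.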

How the results depend on the processing

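Of 171 values (19 probes in 9 comparisons), 152 kept their direction under every alternative and 19 reversed under at least 1, with 31 reversals in all. Of 78 values past the threshold, 13 remained past it whichever array was omitted: the altitude effect of ADIPOQ A_72_P326948, 6 values of SCD, 3 of FASN A_72_P338038 and 3 of CD36 A_72_P325978. Counts of passing probes, given here in the order breed, altitude and interaction where 3 are listed, fell with single arrays left out to 4 to 5, 3 to 5 and 1 to 3, and for the group contrasts to 2 to 8 (TH-TL), 0 to 1 (DH-DL), 0 to 1 (TH-DH), 1 to 5 (TL-DL), 0 to 4 (TH-DL) and 2 to 3 (TL-DH). Other lipid probes fell from 42 to between 16 and 22. In these fits a lone array is assumed to vary like the other groups.

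With the replicate number as a block, the counts were 4, 6 and 4, then 7 (TH-TL), 0 (DH-DL), 1 (TH-DH), 2 (TH-DL), 2 (TL-DH) and 22 of the other lipid probes. Of all 34360 tested probes 3710, 2919 and 4130 passed, then 7169 (TH-TL), 0 (DH-DL), 208 (TH-DH), 272 (TH-DL) and 6018 (TL-DH). For DH-DL 14 probes of the set had an unadjusted p under 0.05 with the block in limma, as had 62.7% of all tested probes. The numbers do not pair the pigs: correlations of deviations between same-numbered arrays were -0.05 to 0.09 over 6 pairs of groups.

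The two-way ANOVA without moderation gave 4 for breed, 5 for the interaction and 5 for TL-DH, against 5641, 5669 and 7687 of all 34360 tested probes. The intensity trend gave 13 for breed, 11 for TH-DH and 13 for TL-DH, against 13195, 7132 and 15090 of them. Normexp without local background gave 2 for DH-DL and 4 for TL-DH, against 1084 and 9005 of 34268 probes. The filter on all arrays gave 11 for TH-DH, against 6258 of 24722 probes. At 0.05 the counts were 15, 18 and 14, then 17 (TH-TL), 14 (DH-DL), 16 (TH-DH), 15 (TL-DL), 17 (TL-DH) and 68 other lipid probes; at 0.01 they were 15 for breed, 13 for the interaction, 12 (DH-DL), 14 (TH-DH), 15 (TL-DL), 15 (TL-DH) and 64. Of all tested probes 59 to 77.5% passed at 0.05 and 44.5 to 68.9% at 0.01 over the 9 comparisons (88% and 80.7% for at least 1 term, the measure of the other lipid probes), so the looser counts lie nearer to the background.

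With the 75th percentile, TL-DL reversed at CD36 A_72_P303204 (-0.46), A_72_P024756 (-0.24) and A_72_P272194 (-0.24) and at LPL (0.31); TL-DH at SCD A_72_P088586 (-0.34) and A_72_P359613 (0.23) and at CD36 A_72_P303204 (-0.37) and A_72_P024756 (-0.22); TH-DL at LPL (0.02); breed at FASN A_72_P223177 (-0.18) and A_72_P175196 (0.05); and the interaction at FABP4 (0.45), CD36 A_72_P272194 (0.19) and CIDEC (0.06), as did altitude at CPT1A (0.01). With quantile normalized scanner values, SCD A_72_P025376 TL-DH took 0.01 to 0.06 (0.06 with either normexp setting), FASN A_72_P223177 DH-DL -0.04 with either normexp setting and -0.09 with processed signals, the FABP4 interaction 0.02 and 0.03, the PLIN1 interaction -0.38 and -0.15, and that of FABP1 0.01. Leaving out an array gave ranges across zero for ADIPOQ A_72_P165401 (interaction -0.61 to 0.12, TL-DL -0.01 to 0.72), the FABP4 interaction (-0.08 to 0.04), the SCD A_72_P088586 interaction (from -0.01), SCD A_72_P025376 TL-DH (-0.02 to 0.02) and FASN A_72_P175196 TH-DL (from -0.17). The cause of these moves was not tested. Taking the mean over all probes of a gene moved the interaction of ADIPOQ to -1.67, of SCD to 0.55 and of FASN to 1.16.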

Other observations

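Several fat metabolism genes outside the set, picked out after their values were seen, also passed for breed or altitude. UCP3, a mitochondrial carrier linked to fatty acid use, was 9.57 in TH, 12.48 in DH, 9.55 in TL and 11.57 in DL, a breed coefficient of -2.46 ± 0.03 (limma, adjusted p = 1.59e-06). CIDEC, a fat droplet protein, was lower in Tibetan pigs by -1.11 ± 0.04 at its brightest probe (adjusted p = 1.02e-05), and CPT1A, which starts mitochondrial fatty acid oxidation, by -0.97 ± 0.02 (adjusted p = 4.18e-06). FABP1, the liver relative of FABP4, was 10.62 in TH, 10.22 in DH, 8.94 in TL and 8.32 in DL, with an altitude coefficient of 1.79 ± 0.03 (adjusted p = 3.14e-06) and a breed coefficient of 0.51 ± 0.03 (adjusted p = 7.20e-05).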
